A study of Mus musculus with 8 samples.

Results

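The genes examined here encode 10 proteins that the visceral endoderm makes, most of them secreted: the apolipoproteins *Apoa1*, *Apoa2*, *Apob*, *Apoe* and *Apom*, the albumin relatives *Afp* and *Alb*, the carriers *Ttr* and *Trf*, and *Amn*. They were chosen by name for their place in this cell type, with earlier results of these data known, by a rule that uses no measured value, and all 10 are among the 36808 genes of the expression table. RNA-seq values were analysed for 8 libraries of mouse embryonic stem cells (ESCs) and of cells at day 5 of directed differentiation toward spinal motor neurons (SMNs), with 1 library per condition. The study asked how Polycomb repressive complex PRC2, which deposits the repressive histone mark H3K27me3, keeps differentiating cells in their lineage.

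The 4 ESC libraries were E14 wild-type (129/Ola background), CJ7 wild-type (129/S), *Suz12delta* (C57/BL6) and *Eednull* (BALB/cR1). The 4 day 5 libraries were E14, *Suz12GT* (129/Ola), *Suz12delta* and *Eednull*, and a *Suz12GT* ESC library was not analysed here. *Suz12GT* is a gene trap line that makes a fusion of SUZ12 with β-galactosidase and keeps part of its H3K27me3. *Suz12delta* carries a truncation of SUZ12 and *Eednull* a point mutation in *Eed*, and both have lost nearly all of the mark. Strain background, line and genotype cannot be told apart, except that E14 and *Suz12GT* share a background. All ESCs were grown with irradiated embryonic fibroblasts, which were reduced by a short plating step before collection or differentiation. Differentiation used withdrawal of LIF, then retinoic acid with a hedgehog pathway agonist. Per the labels, the CJ7 library was made in 1 batch with a library whose code the column of *Eednull* ESCs also carries.

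Values are FPKM, the fragments assigned to a gene scaled by the length of its transcript and by how many fragments of that library were mapped. FPKM sums ranged from 389165 to 797748 per library, and the number of reads behind them is unknown. No difference has a replicate check and no p-value is given, so each statement is about these libraries. *Suz12* itself was at 41.3 FPKM in E14, 53.1 in CJ7, 6.21 in *Suz12delta* and 35.7 in *Eednull* ESCs, and at 16.2, 10.3, 11.6 and 17.6 FPKM in E14, *Suz12GT*, *Suz12delta* and *Eednull* cells at day 5. *Eed* was at 11.1 to 50.9 FPKM, and a point mutation need not change its level. A value of exactly 0 is given as listed at 0, since up to 5 genes per library were listed at 0 while reaching at least 10 FPKM in all the others. In bulk RNA, fewer cells of a type and less RNA per cell cannot be told apart.

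The visceral endoderm is the epithelium that covers the early mouse embryo. It takes up maternal proteins and lipids at its apical surface and secretes lipoproteins and carrier proteins, a role that the fetal liver takes over later. Its genes are controlled by GATA, forkhead (FOXA) and hepatocyte nuclear factor (HNF) proteins, which the liver also uses. Several of the genes lie beside relatives that arose by duplication, as *Afp* does beside *Alb* and *Apoa1* beside *Apoc3* and *Apoa4*.

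The sequence upstream of the start is shown for 4 members: *Afp* and *Alb*, adjacent genes that differed in level, and *Apoa1* and *Apoa2*, whose patterns across the libraries differed. It was taken from RefSeq promoter windows and placed on NCBI build 37 by exact match, and capitals mark the letters GTTAAT of an HNF1 half-site and TGTTTAC or TGTTTGC of a forkhead site, or their reverse complement.
Afp, chr5:90919490-90919739, plus strand: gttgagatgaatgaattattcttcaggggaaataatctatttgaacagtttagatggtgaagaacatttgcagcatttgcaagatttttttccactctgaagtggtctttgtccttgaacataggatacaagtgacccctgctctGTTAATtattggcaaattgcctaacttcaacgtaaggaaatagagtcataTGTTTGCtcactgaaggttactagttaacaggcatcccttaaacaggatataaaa
Alb, chr5:90889646-90889895, plus strand: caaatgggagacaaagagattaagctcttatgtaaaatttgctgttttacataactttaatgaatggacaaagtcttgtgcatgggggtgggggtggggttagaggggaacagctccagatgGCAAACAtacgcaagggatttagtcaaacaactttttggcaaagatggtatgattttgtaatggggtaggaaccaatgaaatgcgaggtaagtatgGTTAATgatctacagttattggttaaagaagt
Apoa1, chr9:46036463-46036662, plus strand: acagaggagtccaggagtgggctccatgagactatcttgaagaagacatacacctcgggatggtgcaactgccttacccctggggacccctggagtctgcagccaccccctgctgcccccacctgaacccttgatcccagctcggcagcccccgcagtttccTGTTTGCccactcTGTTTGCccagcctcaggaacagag
Apoa2, chr1:173154935-173155184, plus strand: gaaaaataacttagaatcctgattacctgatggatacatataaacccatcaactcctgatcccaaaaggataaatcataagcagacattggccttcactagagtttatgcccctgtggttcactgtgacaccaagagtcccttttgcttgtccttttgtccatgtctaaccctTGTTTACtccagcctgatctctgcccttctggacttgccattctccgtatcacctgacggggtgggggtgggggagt
Promoter windows were found for 8 of the 10 members, *Ttr* and *Trf* being those without one. Both strands of the 250 bases before the RefSeq start were searched. That start is not always the annotated start of the coordinates given here: the window of *Apom* lies almost wholly inside the annotated gene, those of *Apoa1* and *Apob* run 50 and 29 bases into it, and that of *Alb* ends 19 bases before it. Bases inside the annotated *Apoa1* are not printed. A forkhead form occurred upstream of 5 of the 8 (*Afp*, *Alb*, *Apoa1*, *Apoa2* and *Apob*), and 7.29% of 32851 RefSeq windows of that length held one. *Apoa1* had TGTTTGC at 2 places, beginning 38 and 25 bases before its annotated start. GTTAAT occurred upstream of *Afp*, 105 bases before its annotated start, and of *Alb*, 51 bases before its own, and in 6.43% of windows. The letters AGATAA of a GATA site were found in 0 of the 8 and in 9.99% of windows, and CAAAGTCCA of an HNF4 site in 0 of the 8 and in 0.384%. A match describes the letters only.

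*Afp* encodes alpha-fetoprotein, the main serum protein of the fetus, and lies at chr5:90919740-90937933 on the plus strand of NCBI build 37. It was listed at 0 in E14, CJ7 and *Suz12delta* ESCs and was at 0.0772 FPKM in *Eednull* ESCs. At day 5 it was listed at 0 in E14 cells and was at 0.155 FPKM in *Suz12GT*, 7.15 in *Suz12delta* and 2.72 in *Eednull* cells. Only the day 5 libraries of the lines without the mark were above 1 FPKM. *Alb*, the albumin gene, has the same orientation and ends 14110 bases before *Afp* begins, at chr5:90889915-90905629. Its highest value in any library was 0.389 FPKM, in *Eednull* cells at day 5, beside 0.0464 in *Suz12delta* and 0 listed in E14 and *Suz12GT* cells. It reached 0.268 FPKM in wild-type CJ7 ESCs. *Afm*, the gene of the related carrier afamin on the other side of *Afp*, was at 0.609 FPKM in *Suz12delta* and 0.373 in *Eednull* cells at day 5 and listed at 0 in both other day 5 libraries.

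*Apoa1*, at chr9:46036663-46038549, encodes the main protein of high density lipoprotein. It was listed at 0 in E14, CJ7 and *Suz12delta* ESCs and was at 0.208 FPKM in *Eednull* ESCs. The day 5 values were 0.0536 FPKM in E14, 0.288 in *Suz12GT*, 7.68 in *Suz12delta* and 4.79 in *Eednull* cells. That is 143-fold above E14 in *Suz12delta* and 89.3-fold in *Eednull* cells, with a denominator close to 0. *Apoc3*, which lies 2466 bases past *Apoa1* on the opposite strand, did not exceed 0.186 FPKM. *Apoa4*, the next apolipoprotein gene, was at 1.26 FPKM in *Suz12delta*, 0.353 in *Eednull* and 0.183 in *Suz12GT* cells at day 5 and listed at 0 in E14 cells. *Apoa1* was therefore the gene of this cluster with the highest value.

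*Apoa2* encodes another protein of high density lipoprotein and lies at chr1:173155185-173156510. Its pattern was unlike that of *Apoa1*. The E14 and CJ7 ESC libraries listed it at 0, and it was at 8.74 FPKM in *Suz12delta* and 14.8 in *Eednull* ESCs. At day 5 it was again listed at 0 in E14 cells and was at 2.81 FPKM in *Suz12GT*, 3.42 in *Suz12delta* and 1.91 in *Eednull* cells. All 5 mutant libraries were above 1 FPKM and all 3 wild-type libraries were listed at 0, a separation that held at both days. At day 5 the *Suz12GT* level was 1.22-fold below that of *Suz12delta* and 1.47-fold above that of *Eednull* cells. Its neighbour *Tomm40l*, 2539 bases away, was at 7.75 to 12.6 FPKM in all 8 libraries.

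*Apob*, at chr12:7984454-8023641, encodes the structural protein of very low and low density lipoproteins. It was at 0.225 FPKM in E14, 0.196 in CJ7, 0.314 in *Suz12delta* and 0.872 in *Eednull* ESCs. Its day 5 values were 0.00780 FPKM in E14, 0.174 in *Suz12GT*, 2.18 in *Suz12delta* and 0.878 in *Eednull* cells. It was 28.8-fold lower at day 5 than in ESCs in the E14 line and 6.94-fold higher in *Suz12delta*, while the *Eednull* libraries differed by 1.01-fold. The fold in E14 rests on a day 5 value close to 0. Only *Suz12delta* cells at day 5 were above 1 FPKM.

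*Apoe*, at chr7:20281458-20284515 on the minus strand, encodes an apolipoprotein of lipid clearance that many cell types make. It made up 51.3% to 99.2% of the summed FPKM of the 10 genes in every library. In ESCs it was at 200.6 FPKM in E14, 89.1 in CJ7, 57.9 in *Suz12delta* and 146 in *Eednull* cells. E14 was thus the highest and *Suz12delta* the lowest, and both wild-type libraries differed by 2.25-fold. At day 5 it was at 4.55 FPKM in E14, 7.66 in *Suz12GT*, 35.2 in *Suz12delta* and 34.0 in *Eednull* cells. It was 44.1-fold lower at day 5 than in ESCs in E14, 4.30-fold lower in *Eednull* and 1.64-fold lower in *Suz12delta* cells. *Apoe* was thus lower at day 5 than in ESCs in E14, *Suz12delta* and *Eednull*, unlike *Afp* and *Apoa1*, which were near 0 in these ESCs. For *Suz12GT* no ESC library was analysed, so its change is unknown. Which cells held the *Apoe* RNA of day 5 was not tested. *Apoc1*, 3450 bases away, was likewise at 14.8 to 18.7 FPKM in the ESC libraries and at 0.0852, 0.818, 3.42 and 2.02 FPKM in E14, *Suz12GT*, *Suz12delta* and *Eednull* cells at day 5. *Tomm40*, 2146 bases away on the other side, encodes a pore protein of mitochondria and was at 23.3 to 63.8 FPKM. Beyond it, *Pvrl2* and *Bcam* had the day 5 order of *Apoe*. In E14, *Suz12GT*, *Suz12delta* and *Eednull* cells *Pvrl2* was at 12.2, 14.4, 35.0 and 27.5 FPKM. *Bcam* was at 4.70, 6.35, 47.8 and 46.6 FPKM. *Tomm40* did not have that order, nor did *Apoc2* and *Apoc4* beyond *Apoc1*, both listed at 0 in E14 and *Suz12GT* cells.

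*Apom*, at chr17:35265942-35268995 on the minus strand, encodes an apolipoprotein that carries sphingosine-1-phosphate. It was between 0.192 and 0.750 FPKM in all 8 libraries. Its highest value was in wild-type CJ7 ESCs. At day 5 it was at 0.332 FPKM in E14, 0.243 in *Suz12GT*, 0.192 in *Suz12delta* and 0.341 in *Eednull* cells, so no mutant library differed from E14 by 2-fold. *Apom* did not share the pattern of the other apolipoproteins.

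*Ttr*, at chr18:20823751-20832825, encodes transthyretin, which carries thyroxine and retinol-binding protein. It was at 0.0597 FPKM in E14, listed at 0 in CJ7, and at 0.0350 in *Suz12delta* and 1.03 in *Eednull* ESCs. Day 5 values of *Ttr* were 0.0348 FPKM in E14, 0.356 in *Suz12GT*, 4.24 in *Suz12delta* and 2.40 in *Eednull* cells. *Suz12delta* cells were 122-fold and *Eednull* cells 68.8-fold above E14 at day 5, with a denominator close to 0. The annotated gene overlaps an antisense transcript by 11 bases, which was at no more than 0.296 FPKM.

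*Trf*, at chr9:103106331-103132774 on the minus strand, encodes transferrin, the iron carrier of serum. It was at 0.755 FPKM in E14, 1.78 in CJ7, 1.88 in *Suz12delta* and 2.80 in *Eednull* ESCs. In the day 5 libraries it was at 0.542 FPKM in E14, 1.50 in *Suz12GT*, 7.60 in *Suz12delta* and 4.95 in *Eednull* cells. The value is uncertain, because another gene model on the same strand covers 26307 of its bases and the counting could divide reads between them. The sum of both was 0.542 FPKM in E14, 1.64 in *Suz12GT*, 10.8 in *Suz12delta* and 4.95 in *Eednull* cells at day 5, which kept the order of the 4 libraries. With the sum, *Trf* was 0.59 above E14 in *Suz12delta* ESCs on the log2 scale, short of 2-fold, and in E14 it was lower at day 5 than in ESCs, at −1.59.

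*Amn*, at chr12:112509322-112514637, encodes amnionless, the membrane partner that brings the receptor cubilin to the cell surface, and so is part of the uptake apparatus and not a serum protein. It was at 0.279 FPKM in E14, 0.870 in CJ7, 0.734 in *Suz12delta* and 1.05 in *Eednull* ESCs. In day 5 cells it was at 0.0287 FPKM in E14, 0.212 in *Suz12GT*, 0.996 in *Suz12delta* and 0.409 in *Eednull* cells. CJ7 and both mutant ESC libraries were thus near the level of *Suz12delta* cells at day 5.

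**Figure D1:**
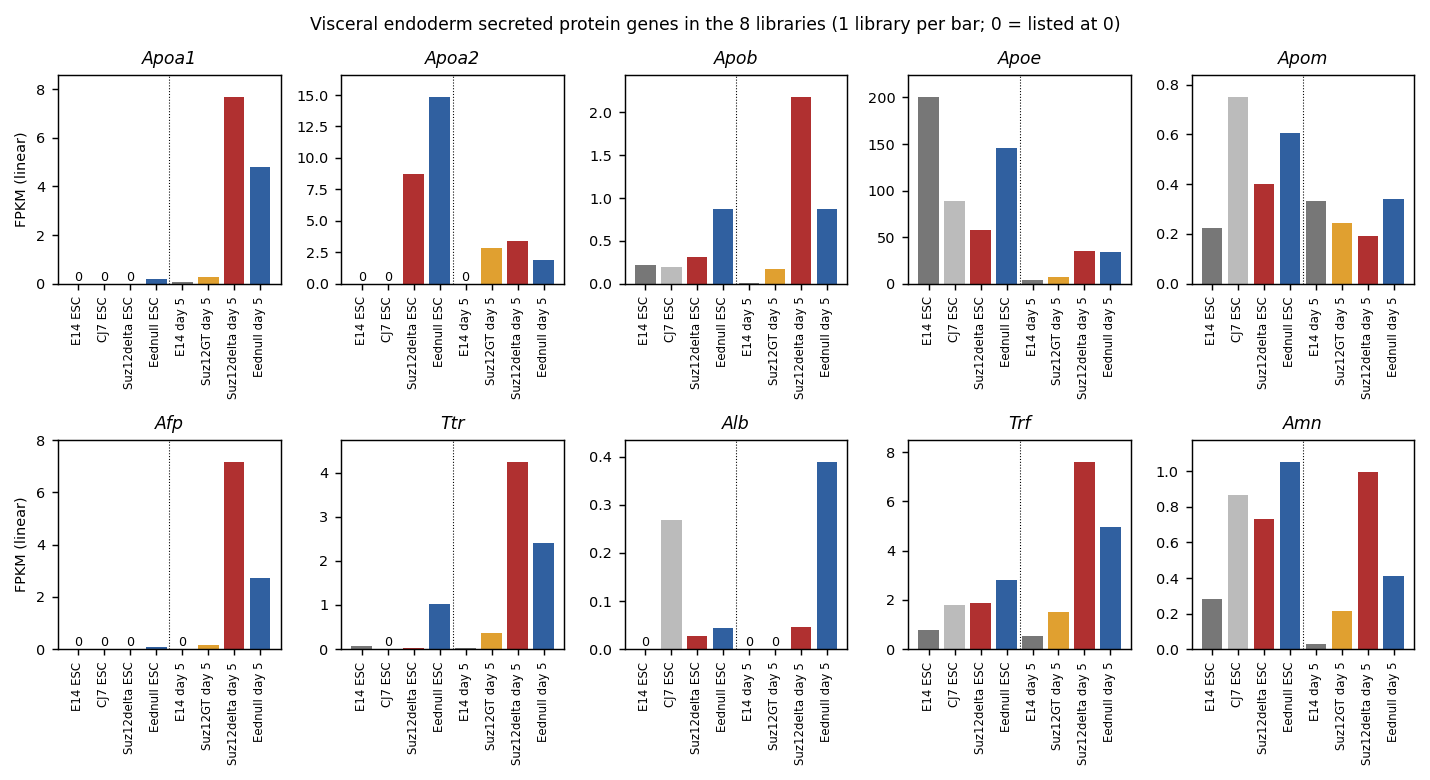
Level of each of the 10 genes in each library, as FPKM on a linear axis with its own range for each gene, with 1 library per condition. *Afp*, *Apoa1* and *Ttr* stand out in the *Suz12delta* and *Eednull* libraries of day 5, *Apoe* is high in all 4 ESC libraries, and *Alb* and *Apom* stay below 1 FPKM throughout.

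The day 5 libraries were compared by the log2 ratio of FPKM plus 0.1, leaving out genes under 0.1 FPKM in both libraries, and a gene was counted as higher or lower from 2-fold on this scale. The added 0.1 understates the change of low genes. In *Suz12delta* cells 8 of the 9 members compared were higher than in E14 cells and 0 were lower, against 26.6% of all genes higher and 9.52% lower. Their median log2 ratio was 4.40, and that of all 22069 genes was 0.26. *Apom* was the member that was not higher, at −0.56, and *Alb* was below the minimum. In *Eednull* cells 9 of 10 members were higher and 0 lower, against 21.6% and 11.3% of all genes, with a median of 3.08 beside 0.08. *Apom* again was the exception, at 0.03. The E14 library is the reference of both comparisons.

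In *Suz12GT* cells 7 of 9 members were higher than in E14 cells and 0 were lower, against 16.8% and 4.4% of all genes. Their median log2 ratio was 1.34, beside 0.13 over all genes. *Apoa2* was the largest at 4.86, and the other 6 lay between 1.28 and 1.76. E14 was listed at 0 for *Apoa2* and *Afp*. Those 6 ratios come from levels of 0.155 to 1.50 FPKM, and with 1 FPKM added in place of 0.1 only 1 member was higher. *Apoe* was 1.68-fold above E14, short of 2-fold.

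**Figure D2:**
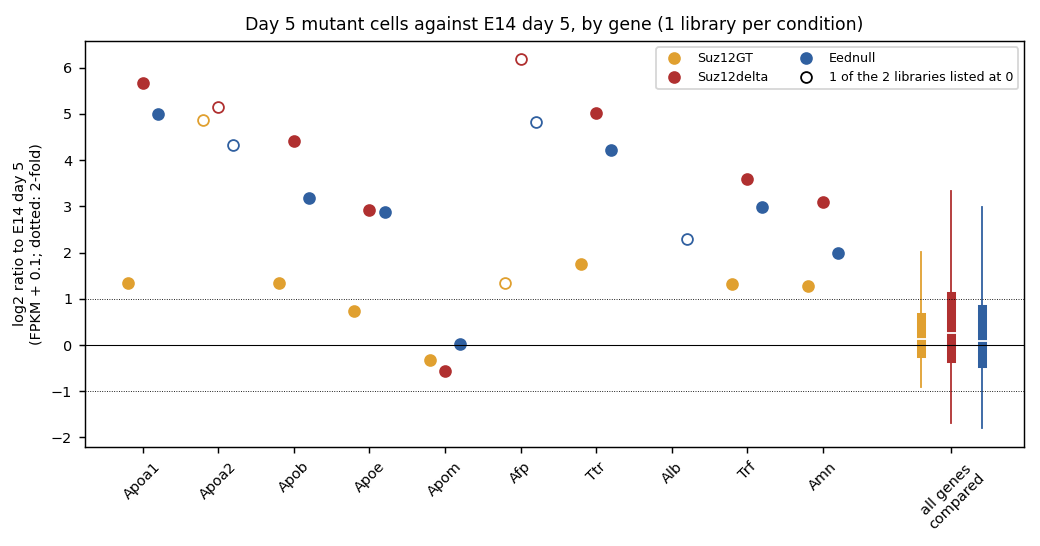
Log2 ratio of FPKM plus 0.1 at day 5 to the E14 library for each of the 10 genes, for *Suz12GT*, *Suz12delta* and *Eednull* cells, with 1 library each. *Alb* was compared in *Eednull* only and has no other point. For the other genes the *Suz12GT* points lie below those of both other lines except for *Apoa2* and *Apom*, and the *Apom* points lie near 0.

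Set directly against *Suz12delta* at day 5, *Suz12GT* cells had 0 of 9 members higher and 7 lower, where 12.5% of all genes were higher and 19.3% lower. The median log2 ratio was −2.26, beside −0.18 over all genes. Against *Eednull* cells 0 of 10 were higher and 7 lower, where 14.9% of all genes were higher and 14.4% lower, with medians of −1.99 and −0.01. *Suz12GT* cells share the 129/Ola background with E14, so the line that keeps part of the mark is also the one whose strain matches the wild type, and these cannot be told apart. *Afp* differed by 46.3-fold between *Suz12delta* and *Suz12GT* cells and by 17.6-fold between *Eednull* and *Suz12GT* cells, over a *Suz12GT* level of 0.155 FPKM. *Apoa1* differed by 26.6-fold and 16.6-fold. *Apoe* differed by 4.60-fold and 4.44-fold. Over the 10 genes the summed level at day 5 was 5.55 FPKM in E14, 13.4 in *Suz12GT*, 68.7 in *Suz12delta* and 52.8 in *Eednull* cells. Without *Apoe* it was 0.999, 5.74, 33.5 and 18.8 FPKM, which is the same order.

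The ESC libraries gave a less regular picture. In *Eednull* ESCs 7 of 8 members were higher than in E14 ESCs and 0 were lower, against 22.4% and 11.9% of all genes, with a median log2 ratio of 1.61 beside 0.04. In *Suz12delta* ESCs 3 of 6 were higher (*Apoa2*, *Trf* and *Amn*) and 1 lower (*Apoe*), against 18% and 22.8% of all genes, with medians of 0.88 and −0.28. *Trf* and *Amn* were also at least 2-fold higher, and *Apoe* 2.25-fold lower, in the wild-type line CJ7 than in E14. There 4 of 6 members were higher and 1 lower, against 15.7% and 14.7% of all genes, with medians of 1.25 and −0.12. With CJ7 as the reference, 1 member remained at least 2-fold higher in *Suz12delta* ESCs (*Apoa2*), and 4 did in *Eednull* ESCs (*Apoa1*, *Apoa2*, *Apob* and *Ttr*). The median over members was then −0.22 in *Suz12delta* and 0.71 in *Eednull* ESCs. *Apoa2* was thus the member that stood above both wild-type lines in both mutant lines before differentiation. If the shared code means a shared batch, the comparison of *Eednull* ESCs with CJ7 lies within it.

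From ESCs to day 5 the E14 line had 0 of 5 members at least 2-fold higher and 3 lower (*Apob*, *Apoe* and *Amn*), against 18.3% and 25.8% of all genes. Their median log2 change was −1.56, beside −0.20 over all genes. *Suz12delta* had 5 of 9 higher (*Apoa1*, *Apob*, *Afp*, *Ttr* and *Trf*) and 1 lower (*Apoa2*), against 26.9% and 12.6%, with medians of 1.96 and 0.43. *Eednull* had 4 of 10 higher (*Apoa1*, *Afp*, *Ttr* and *Alb*) and 3 lower (*Apoa2*, *Apoe* and *Amn*), against 18.4% and 24.8%, with medians of 0.41 and −0.08. *Apoa1*, *Afp* and *Ttr* were higher at day 5 in both mutant lines and *Apoa2* was lower in both, by 2.55-fold in *Suz12delta* and 7.78-fold in *Eednull*. The *Eednull* ESC and day 5 columns carry different codes, as all columns do, and what a code stands for is not stated. The part of a batch in the change was not tested.

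**Figure D3:**
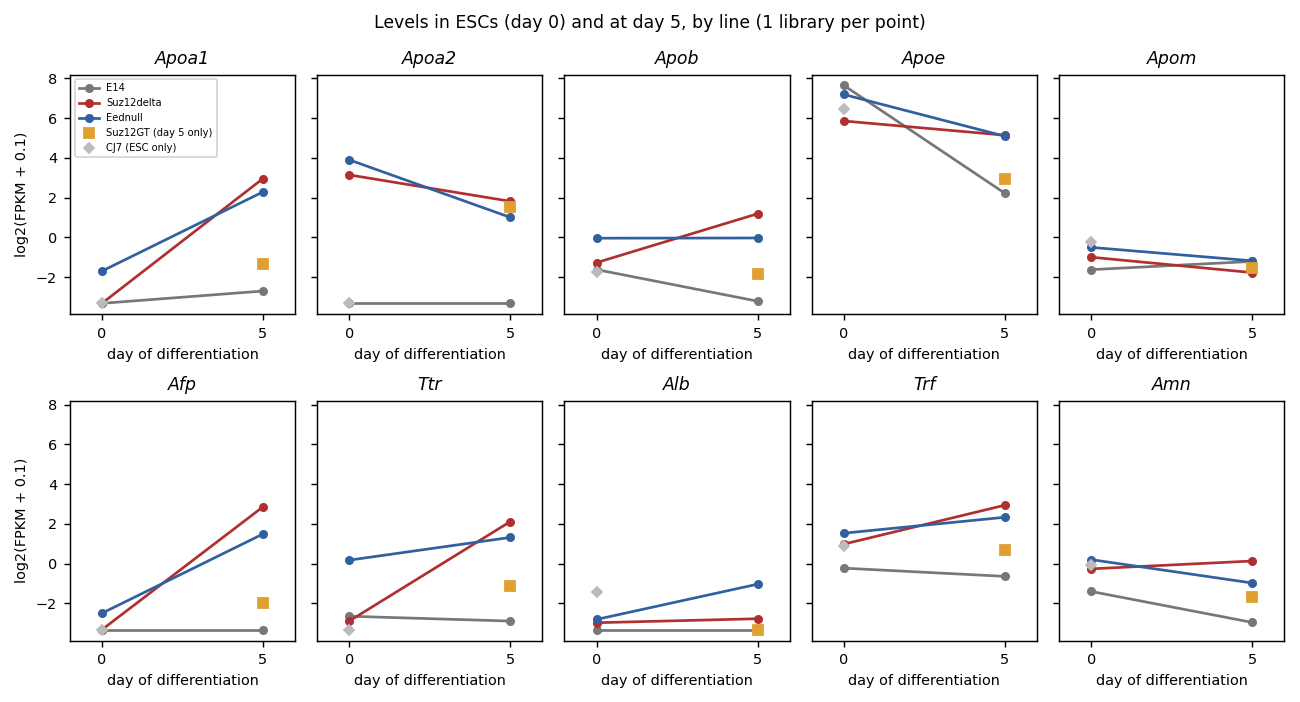
Log2(FPKM + 0.1) of each gene in ESCs and at day 5 in the E14, *Suz12delta* and *Eednull* lines, joined by a line, with *Suz12GT* (squares, day 5) and CJ7 (diamonds, ESCs) as single points and 1 library per point. *Afp*, *Apoa1* and *Ttr* go up by more than 2-fold in both mutant lines and stay within 2-fold in E14 on this scale, *Apoa2* goes down in both mutant lines, and *Apoe* goes down in all 3 lines, furthest in E14.

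The transcription factors of endoderm were present in the same libraries. At day 5, 8 of 12 factors compared in *Suz12GT*, 13 of 15 in *Suz12delta* and 13 of 15 in *Eednull* cells were at least 2-fold higher than in E14, and 0 were lower in each, with median log2 ratios of 1.76, 2.56 and 2.33. *Gata4*, a GATA factor of endoderm, was listed at 0 in E14 and was at 11.6 FPKM in *Suz12GT*, 10.3 in *Suz12delta* and 12.1 in *Eednull* cells. *Foxa2*, a forkhead factor, was at 2.96 FPKM in E14 and at 11.8, 12.0 and 13.5 FPKM in these lines. Both factors were thus at like levels in *Suz12GT* and the other mutant lines, where *Afp* and *Apoa1* were not. In ESCs 8 of 15 factors were higher and 3 lower in *Suz12delta* and 12 of 15 higher and 1 lower in *Eednull* than in E14, with *Gata4* at 0.653, 2.94 and 11.4 FPKM in E14, *Suz12delta* and *Eednull* ESCs.

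Of 12 receptors and endocytic proteins of the brush border, 5 of 10 compared were higher in *Suz12GT*, 8 of 12 in *Suz12delta* and 9 of 11 in *Eednull* cells than in E14 at day 5, and 0 were lower, with medians of 1.06, 2.11 and 1.84. *Cubn*, which encodes cubilin, the partner of amnionless, was at 0.0411 FPKM in E14 and at 1.86, 2.83 and 1.72 FPKM in the 3 mutant lines. *Dab2*, an adaptor for endocytosis, was at 1.59, 9.74, 9.43 and 20.2 FPKM in E14, *Suz12GT*, *Suz12delta* and *Eednull* cells. *Tfrc*, the transferrin receptor, was at 78.9 FPKM in E14 and between 40.2 and 44.5 in the mutant lines, within 2-fold. The receptor for transferrin thus did not move with *Trf*.

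Of 19 other genes of lipoprotein assembly and lipid transport in the table, 3 of 13 compared were higher in *Suz12GT*, 9 of 16 in *Suz12delta* and 7 of 14 in *Eednull* cells, and 0 were lower, where 16.8%, 26.6% and 21.6% of all genes were higher. The list medians were 0.24, 1.38 and 0.75, beside 0.13, 0.26 and 0.08 over all genes, so in *Suz12GT* the list was near the background. *Pltp*, the phospholipid transfer protein, was at 9.50 FPKM in E14, 14.7 in *Suz12GT*, 41.9 in *Suz12delta* and 35.0 in *Eednull* cells, the same order as *Apoe*. *Sar1b*, *Dgat1* and *Scarb1*, which act in lipid synthesis, transport or uptake, stayed within 2-fold of E14.

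Of 24 other plasma proteins, 8 of 11 compared were higher in *Suz12GT*, 13 of 15 in *Suz12delta* and 7 of 11 in *Eednull* cells, and 0, 1 and 1 were lower, with medians of 1.98, 1.44 and 1.11. Set against *Suz12delta*, *Suz12GT* cells had 2 of 15 higher and 7 lower, with a median of −0.79. Over all genes 12.5% were higher and 19.3% lower, so the count of higher ones was near the background. *Igf2*, the growth factor gene with the highest values of the list, was at 7.11 FPKM in E14, 43.0 in *Suz12GT*, 246 in *Suz12delta* and 177 in *Eednull* cells. *Itih2*, which encodes an inter-alpha-trypsin inhibitor chain, was listed at 0 in E14 and was at 0.363, 1.48 and 1.66 FPKM in these lines. Both thus had *Suz12GT* between E14 and the other mutant lines, as *Afp* and *Apoa1* did. Others of the list did not. *Rbp4*, the retinol-binding protein that transthyretin carries, was at 0.538 FPKM in E14, 12.0 in *Suz12GT*, 10.7 in *Suz12delta* and 8.06 in *Eednull* cells, so it was as high in *Suz12GT* as in the other lines while *Ttr* was not. *Fgb*, which encodes the beta chain of fibrinogen, was at 14.1 FPKM in *Suz12GT* and at 0.144, 0.395 and 0.230 FPKM in E14, *Suz12delta* and *Eednull* cells. *Vtn*, vitronectin, was at 27.3 FPKM in *Suz12GT*, 5.42 in E14, 1.51 in *Suz12delta* and 2.31 in *Eednull* cells. *Rbp4*, *Fgb* and *Vtn* thus had their highest day 5 value in *Suz12GT*, unlike *Afp* and *Apoa1*.

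**Figure D4:**
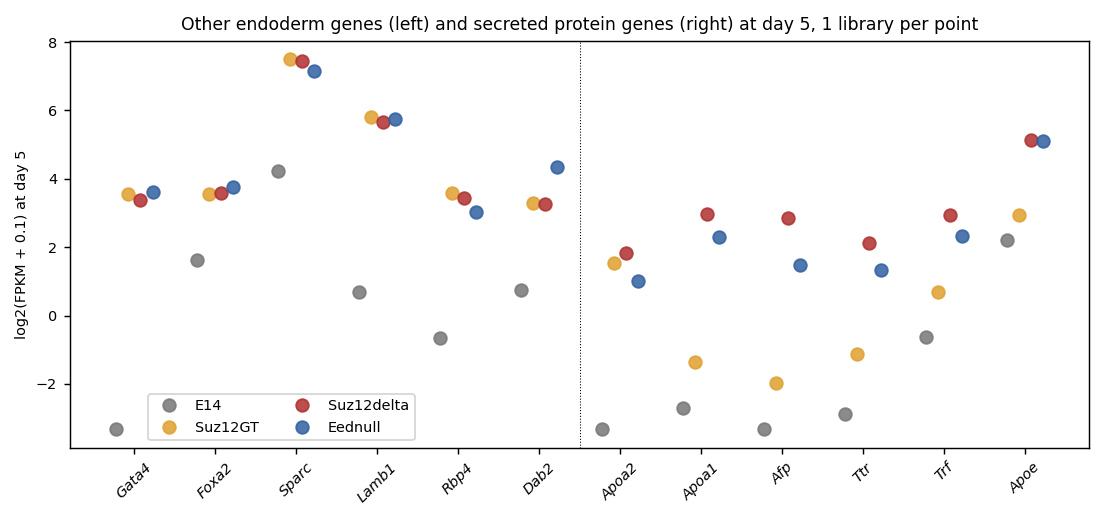
Log2(FPKM + 0.1) at day 5 for 6 other endoderm genes (left) and 6 of the secreted protein genes (right), with 1 library per point; both sets were picked after their values were seen. On the left the 3 mutant lines lie close together, while on the right, apart from *Apoa2*, *Suz12GT* lies between E14 and the other mutant lines.

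Markers of other cell types moved in the same libraries. Of 11 markers of visceral endoderm in the table, 8 of 10 compared were higher in *Suz12GT* and 9 of 10 in each of *Suz12delta* and *Eednull* cells at day 5, with medians of 2.53, 3.19 and 2.60. Of 12 markers of parietal endoderm, the other extraembryonic endoderm, 10 were higher in each, with medians of 2.88, 2.81 and 2.52. *Sparc*, a matrix protein gene of that list, was at 18.8 FPKM in E14 and 181, 173 and 144 FPKM in the 3 lines. Against *Suz12delta*, *Suz12GT* had 4 of 10 visceral markers and 2 of 12 parietal markers lower, and 0 and 1 higher. Over all genes 19.3% were lower and 12.5% higher, so the parietal counts were near the background.

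The 12 markers of embryonic fibroblasts, the feeder cell type, had summed levels in the same order of day 5 libraries as the secreted protein genes. At day 5 they were higher than in E14 in 11 of 12 cases in *Suz12GT* and 12 of 12 in *Suz12delta* and *Eednull*, with medians of 2.17, 4.29 and 3.85. Their summed level was 4.82 FPKM in E14 (*Prrx1* and *Lum* listed at 0), 20.0 in *Suz12GT*, 132 in *Suz12delta* and 71.4 in *Eednull* cells. In ESCs it was 100.5 FPKM in E14, 126 in CJ7, 648 in *Suz12delta* and 298 in *Eednull* cells. That was higher than at day 5 in each of the 3 lines with both days. *Afp* and *Apoa1* were at 0 to 0.208 FPKM in all 4 ESC libraries. *Apoa2* was listed at 0 in E14 and CJ7 ESCs and was at 8.74 FPKM in *Suz12delta* and 14.8 in *Eednull* ESCs. It was lower at day 5 in both mutant lines, and *Apoe* was lower at day 5 in all 3 lines. The part of fibroblasts in the members' values was not tested.

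Markers of hepatocytes, the later source of these serum proteins, were near 0. *Tat* and *Cyp3a11* were listed at 0 in all 4 day 5 libraries, and *Arg1* was the only 1 of 11 at 1 FPKM or more there, at 15.4 FPKM in E14 and 12.8 to 36.2 in the mutants. Macrophages also make APOE. Their 9 markers summed to 1.65 FPKM in E14, 2.61 in *Suz12GT*, 5.69 in *Suz12delta* and 4.69 in *Eednull* cells at day 5, mostly *Cd68*. Of those compared, 1 of 3 were higher than E14 in *Suz12GT*, 4 of 4 in *Suz12delta* and 4 of 5 in *Eednull*, and 0 were lower. Over all genes 16.8%, 26.6% and 21.6% were higher. *Csf1r* was at 0.0396, 0.116, 0.569 and 0.526 FPKM in E14, *Suz12GT*, *Suz12delta* and *Eednull* cells. *Cd14* was at 0.0718, 0.272, 0.844 and 0.706 FPKM. *Emr1* and *Ptprc* were listed at 0 in 3 and 4 of these libraries. In ESCs *Lyz2*, a lysozyme gene, was at 6.94 FPKM in E14, 0.551 in CJ7, 21.7 in *Suz12delta* and 0.229 in *Eednull*. Choroid plexus, which makes transthyretin in the brain, had summed marker levels of 0.356, 5.67, 9.73 and 9.18 FPKM in E14, *Suz12GT*, *Suz12delta* and *Eednull* cells. *Folr1* made up most of it in the mutant lines and was listed at 0 in E14. Radial glia and astrocyte markers summed to 62.4 to 119 FPKM, highest in *Suz12GT*. The part of these cell types in the members' values was not tested.

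The label of the culture was checked with 10 genes of motor neurons and their progenitors. At day 5, 0 were at least 2-fold higher than E14 in the 3 mutant lines, and 2 of 9 compared were lower in *Suz12GT*, 8 of 9 in *Suz12delta* and 9 of 9 in *Eednull* cells. *Olig2*, a factor of motor neuron progenitors, was at 22.1, 10.5, 0.107 and 0.0455 FPKM in E14, *Suz12GT*, *Suz12delta* and *Eednull* cells. The 2 lines with the highest summed level of the secreted protein genes thus had the lowest *Olig2*. *Tubb3* was listed at 0 in all 8 libraries. Of 8 genes of pluripotent cells, 7 were higher than E14 at day 5 in *Suz12GT*, 7 in *Suz12delta* and 4 of 7 compared in *Eednull*. *Sox2* was lower in *Suz12delta* and *Eednull*. Summed levels were 13.1 to 33.7 FPKM in all 4 day 5 libraries beside 498 to 1193 FPKM in ESCs. *Sox2* alone was at 20.7 FPKM of the 21.9 summed in E14 cells, and at 22.2, 3.70 and 5.63 in *Suz12GT*, *Suz12delta* and *Eednull*. The median of the 8 genes was 0.166, 1.40, 2.93 and 0.639 FPKM in E14, *Suz12GT*, *Suz12delta* and *Eednull* cells.

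**Figure D5:**
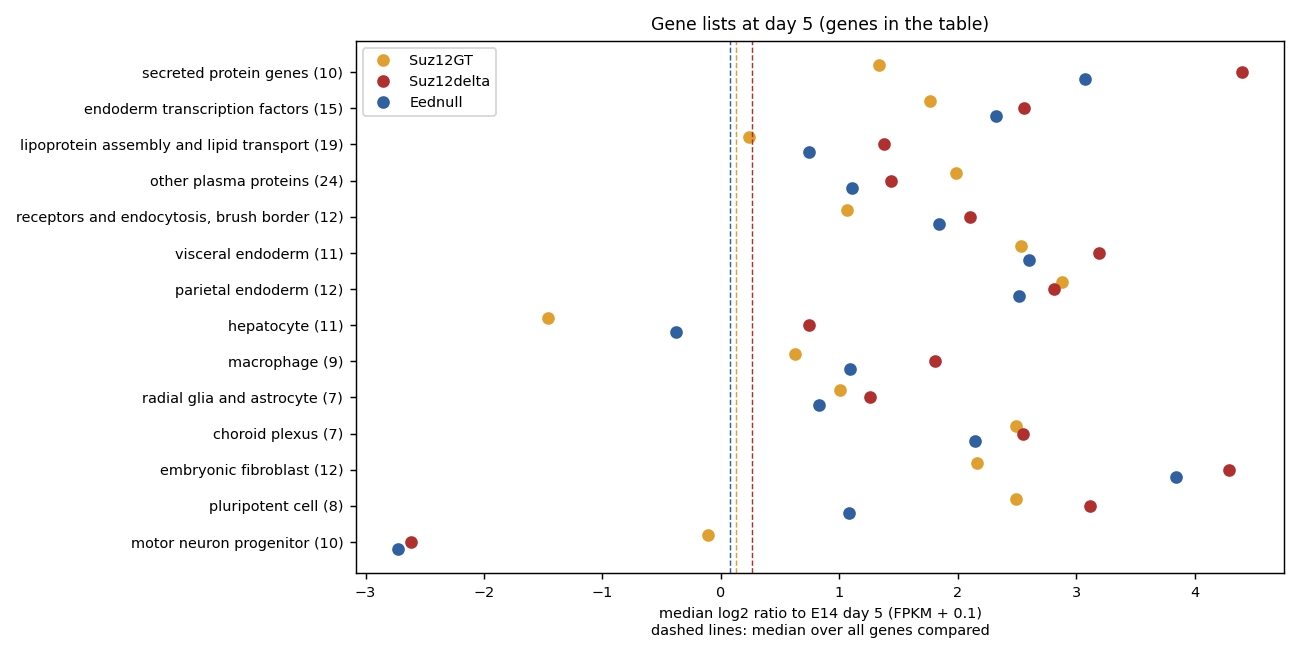
Median log2 ratio to E14 at day 5 for the secreted protein genes and 13 other lists, with the number of genes in the table in brackets and the median over all genes compared as dashed lines. The median of the secreted protein genes is 1.34 in *Suz12GT* and 4.40 in *Suz12delta*, and that of parietal endoderm markers is 2.88 and 2.81. Genes of motor neurons and their progenitors, labelled motor neuron progenitor, lie below 0 in *Suz12delta* and *Eednull*.

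The 10 genes were not alike in pattern across the 8 libraries. Pearson's r of each with the mean log2 level of the other 9 was 0.97 for *Trf*, 0.97 for *Apob*, 0.87 for *Ttr*, 0.76 for *Afp*, 0.75 for *Apoa1*, 0.65 for *Amn* and 0.52 for *Apoa2*. It was 0.37 for *Alb*, 0.12 for *Apoe* and −0.13 for *Apom*. Among 10210 other genes that reached 10 FPKM in some library, *Fzd6*, a receptor for Wnt proteins, was the most like the mean of the members, with r of 0.985. It was at 2.14, 2.29, 3.16 and 4.71 FPKM in E14, CJ7, *Suz12delta* and *Eednull* ESCs and at 1.21, 3.26, 10.3 and 8.93 FPKM in E14, *Suz12GT*, *Suz12delta* and *Eednull* cells at day 5. *Hoxc8*, *Rnf128*, *Adamts9*, *Slc43a3*, *Errfi1*, *Gata3*, *Rnaset2b*, *Krt19* and *Hmga2* followed, with r of 0.943 to 0.963. *Krt19*, a keratin gene of simple epithelia, was at 0.490, 8.67, 61.9 and 68.9 FPKM in the 4 day 5 libraries, in the same order of lines. These correlations are over 8 libraries that share lines and may share batches, and describe them only.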

How the data were processed

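Each of the 8 conditions had 1 RNA-seq library. The authors deposited FPKM per gene. They aligned reads with TopHat 1.3.2 and Bowtie 0.12.7 and estimated FPKM with Cufflinks 1.2.1 and Cuffdiff, using Ensembl gene models on NCBI build 37 and corrections for sequence bias and multiply mapped reads. All columns were assigned from their names and the labels. Reads per library are unknown: low values shared no common step, at most 0.795% of low genes having the commonest ratio to E14 ESCs.

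Log2 ratios used FPKM plus 0.1, leaving out genes under 0.1 FPKM in both libraries, with a 2-fold limit and no rescaling. No test was run. The members and gene lists were chosen with earlier results of these data known. Genes named were all members, their neighbours, up to 6 genes of highest FPKM per list (some are not reported here), the 10 most similar in pattern, and genes named where they were listed at 0 or where a count was small. *Rhox5* and *Apob48r* of the lists were not found in the table, and for a symbol with several rows the highest was used. Gene positions came from GENCODE vM1 (NCBI build 37). The ratio and count steps were tested on simulated data. The software was pandas 2.3.3 with NumPy 2.4.6 under Python 3.11.15, and matplotlib 3.10.9. The alternatives tried were added values of 1 and 0.01 FPKM, minimums of 1 FPKM and none, a 4-fold limit, scaling to 1 75th percentile, CJ7 as wild-type ESC and, added after the data were seen, genes above 0 in both libraries and *Trf* summed with the overlapping model.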

Additional observations from a re-analysis of the deposited data

Results flagged for a closer look

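*Apob* drew attention because its change from ESCs to day 5 went in opposite directions in different lines. Its log2 change was 2.46 in *Suz12delta* and −1.59 in E14, and it was 0.01 in *Eednull*. The change in E14 was between low values, 0.225 FPKM in ESCs and 0.00780 at day 5. Each line has 1 library per day, so the difference between lines was not tested.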

How the results depend on the processing

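Of 158 counts recomputed under the alternatives, 132 stayed within 1.5 times the reported count and 26 moved further. Of 79 medians over members, 55 stayed within 0.585 of the reported value on the log2 scale and 22 moved further. The other 2, both for CJ7 against E14 ESCs, had passed 2-fold and no longer had the same sign. Of 611 single gene ratios, 540 kept their side of the fold limit and 2 that had passed it changed sign. The median over members at day 5 against E14 ranged from 2.34 to 6.57 in *Suz12delta*, 1.63 to 5.48 in *Eednull* and 0.29 to 2.52 in *Suz12GT*. The counts of members higher at day 5 in *Suz12delta* and *Eednull* than in E14, and those lower in *Suz12GT* than in these lines, were among the 132 under every alternative. The causes of the other changes were not tested. With 1 FPKM added, the count of higher members was 1 in *Suz12delta* ESCs, 2 in *Eednull* ESCs, 0 in CJ7 ESCs and 1 in *Suz12GT* at day 5, against E14. The count from ESCs to day 5 was then 1 lower in E14 and 2 higher in *Eednull*. With 0.01 FPKM added, 2 were lower at day 5 in *Suz12delta*. With a minimum of 1 FPKM, 4 were higher in *Eednull* ESCs, 1 in CJ7 ESCs and 2 in *Suz12GT* at day 5, and 1 was lower in E14 at day 5. With a 4-fold limit the higher counts were 1 in *Suz12delta*, 2 in *Eednull* and 0 in CJ7 ESCs, 1 in *Suz12GT* at day 5 and 2 from ESCs to day 5 in *Eednull*. The lower counts were then 0 in *Suz12delta* and CJ7 ESCs, 1 from ESCs to day 5 in E14 and 0 in *Suz12delta*. With CJ7 as the wild type, 1 was higher in *Suz12delta* ESCs, and 4 were higher and 1 lower in *Eednull* ESCs. *Amn* in *Suz12delta* ESCs was then at −0.22 and *Apom* in *Eednull* ESCs at −0.27 on the log2 scale. Scaling to the 75th percentile gave 0 lower in CJ7 ESCs and 3 lower from ESCs to day 5 in *Suz12delta*, where it moved the median of all genes by −0.37; over the comparisons this shift ranged up to 0.36, in *Suz12delta* ESCs. Over genes above 0 in both libraries, 3 were higher from ESCs to day 5 in *Suz12delta*. The median for CJ7 against E14 ESCs was −0.0164 with a minimum of 1 FPKM and 0 with none.

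No paired analysis was possible because each condition has 1 library. With a minimum of 1 FPKM, 7 members were counted as higher in *Suz12delta* and 6 in *Eednull* at day 5 against E14.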
